A study of Mus musculus with 5 samples.

Results

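The genes described here encode the subunits, activators, inhibitor and assembly factors of the proteasome. They were taken from the list of mRNA levels by name: symbols that start with Psma, Psmb, Psmc, Psmd, Psme, Psmf or Psmg and go on with a digit, typed protein-coding in GENCODE mouse release M21. Of 50 listed symbols of that form 49 met the rule, and the other is the pseudogene Psmb7-ps2. They are 49 of 13407 protein-coding genes and of 18349 genes listed in all. The name also takes in Psmc3ip, a factor of meiotic recombination that is no proteasome subunit, and the near-copy gene Psme2b. All 5 samples come from MEL, an established line of mouse erythroleukemia cells: 3 are CLIP-seq of PABPC1, which coats the poly(A) tails of mRNAs in the cytoplasm, and 2 are mRNA-seq of poly(A)-selected RNA. In CLIP-seq ultraviolet light (400 mJ/cm2 here) joins a protein to the RNA it touches. RNase was applied for 10 min, an antibody then pulled down the protein, and the RNA fragments still attached were sequenced as tags. The sample labels name no treatment or genotype for these cells, and the deposited tables are marked as day 0, a term the labels do not explain.

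The 3 CLIP-seq samples were deposited as 1 list of 90337 peaks and 1 list of 11907 deletion sites, and both mRNA-seq samples as 1 RPKM value a gene (reads scaled by the length of the gene and the size of the library). No value below therefore has a replicate error, and no test between samples was possible. The RPKM rested on 35251228 reads, and the counting error was at most 1.69% for Psmb3, Psmb6, Psmc2 and Psme2b, whose gene models matched the annotation by version and which had 7623, 11995, 38505 and 3494 reads. Of 10 erythroid markers 9 had an RPKM of at least 1, from Klf1 at 428 to Hbb-bs at 19.6, and Slc4a1 stood at 0.122. Among 6 fibroblast markers Col1a2, Col3a1 and Dcn were not listed, Col1a1 was at 0.873, Pdgfrb at 2.60 and Thy1 at 65.3. All 4 listed markers of other blood cells, out of 6, lay under 1, Csf1r being the highest at 0.610.

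The proteasome degrades proteins tagged with ubiquitin. Its barrel, the 20S core, is built from rings of alpha subunits (Psma genes), which form the gate, and beta subunits (Psmb genes), of which Psmb5, Psmb6 and Psmb7 carry the catalytic sites. Psmb8, Psmb9 and Psmb10 encode interferon-inducible catalytic subunits that replace these in the immunoproteasome. The 19S cap recognises and unfolds the substrate with a ring of ATPases (Psmc genes) and with non-ATPase subunits (most Psmd genes). Psme genes encode activators that can bind the core in place of the cap. Psmg genes and Psmd5, Psmd9 and Psmd10 encode chaperones of assembly, and Psmf1 encodes the inhibitor PI31. Subunits are needed in fixed proportions, and their genes are known to be controlled together by the transcription factor NRF1, the product of Nfe2l1.

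The sequences below surround deletion sites of members with many deletions, with 2 sites in coding sequence, and were chosen after their values were seen to show where the deleted base lies. For Psmb4 and Psmd4 the site shown is a weaker one inside AATAAA, with 56 and 79 deletions against 125 and 117 at the strongest. The strongest site of Psmb4 has none of the hexamers counted below within 20 nt. A deletion site is a base at which tags carry a deletion, as arises when reverse transcriptase passes the base joined to protein. Each is read 5′ to 3′ on the mRNA from the GENCODE M21 transcripts, with the deleted base in capitals.
Psma1, 3' UTR, chr7 position 114264747: cacagaaaccatatAatggggtgcatttt
Psma1, 3' UTR, chr7 position 114264642: tgtctttgcagtttTaaagacaactgtga
Psmg4, 3' UTR, chr13 position 34178130: gagtttgtaacgtgTatataaatgacatt
Psmc6, 3' UTR, chr14 position 45348765: aaataaagttaaggAaaataatgtatgta
Psmb4, 3' UTR, chr3 position 94884346: cagacttttgtaaaAtaaatcagtcgttt
Psmd4, 3' UTR, chr3 position 95032722: gcctttatgatggaAtaaagcttggcaag
Psmc2, 3' UTR, chr5 position 21803763: tgttgccaccgcacAaaaataaaagattt
Psmb6, 3' UTR, chr11 position 70527632: ccgacgcagaagctAataaacagtttgtt
Psmd8, 3' UTR, chr7 position 29174269: tggccgtggattaaAtaatttttaaaatg
Psmc6, CDS, chr14 position 45343680: acaagcaagattagAtatattgaaaatcc
Psmb2, CDS, chr4 position 126684204: gtacagtttgcagaAtatatccagaaaaa
The poly(A) signal AATAAA lies at or just after the deleted base in Psmb4, Psmd4, Psmc2 and Psmb6. Psma1 (at 114264747) and Psmg4 hold ATATAA there, in Psmc6 (at 45348765) an AATAAA lies before the deleted base, and in Psmd8 the base is part of the variant poly(A) signal ATTAAA.

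Proteasome mRNAs were abundant. The median RPKM of the 49 genes was 126, against 11.5 over all protein-coding genes, and 29 genes stood at 100 or more. Of the 49, 47 had an RPKM of at least 1 and are called expressed below. Among these 45 lay above the protein-coding median of 19.6, the exceptions being Psme2 and Psmb9. The 7 alpha genes ran from Psma3 at 22.9 to Psma7 at 364 with a median of 245, and the 7 constitutive beta genes from Psmb3 at 94.0 to Psmb4, the highest of all, at 1305, also with a median of 245. By the genes' own values the 6 ATPase genes of the cap lay closest together, from Psmc2 at 217 to Psmc6 at 561, a range of 2.58 times. That range depends on gene length, as the RPKM of Psmc2 rested on a gene model of 5031 nt. Its exons in the GENCODE basic transcripts hold 1785 nt, and a shorter length would give a higher RPKM. The 11 non-ATPase genes ran from Psmd11 at 25 to Psmd4, the ubiquitin receptor, at 684, with a median of 165. Psma8, the testis form of an alpha subunit, had no row in the list.

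The median RPKM of the factors outside the core and the cap was 45.3 for the cap's chaperones, 74.5 for those of the core and 54.9 for the activators, though single genes overlapped with core and cap genes. The cap's chaperones ran from Psmd9 at 27.2 to Psmd5 at 112, and those of the core from Psmg3 at 22.4 to Psmg1 at 81.7. Psmf1 stood at 33.6. Among activators Psme3, which encodes the nuclear PA28-gamma, was the highest at 149, Psme4 (PA200) and Psme1 stood at 54.9 and 52.8, and Psme2 was the lowest at 8.19. The inducible beta genes differed widely: Psmb10 at 97.1, Psmb8 at 52.3 and Psmb9 at 2.14, the last at percentile 5.98 of expressed protein-coding genes. The thymus gene Psmb11 (0.00668) and Psmc3ip (0.640) were the only members below 1, and also the only members without a peak.

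The lowest alpha, constitutive beta and non-ATPase genes were genes with abundant near-identical copies elsewhere in the genome. A search of all annotated transcripts for stretches of at least 200 nt with at least 90% identity found such copies for 15 members, and for 11 of them a copy was in the RPKM list. For 6 members the copies summed to a higher RPKM than the gene itself: Psma3, Psma4, Psma5, Psmb3, Psmd11 and Psme2. Psma3 stood at 22.9 and its processed pseudogene Gm13835, identical over 665 nt, at 328. Psma5 stood at 44.2 beside Gm12989 at 281 and Gm8394 at 210. Psmb3 stood at 94.0 beside Gm4950 at 505, Psma4 at 102 beside Gm6542 at 166, and Psmd11 at 25 beside Gm14048 at 121. Psme2 stood at 8.19 beside Psme2b at 118, with 99.4% identity over 794 nt.

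With gene and copies summed, the alpha genes ran from 245 (Psma2) to 535 (Psma5), a range of 2.19 times in place of 15.9. This was narrower than that of the ATPase genes, which stayed at 2.58 times. The beta genes then ran over 7.18 times in place of 13.9, from Psmb6 at 182 to Psmb4, and the non-ATPase genes over 7.98 times in place of 27.4, from Psmd12 at 85.7 to Psmd4. The sums are approximate, since each RPKM is scaled by its own gene's length, and the sources used here do not say how reads shared by several copies were assigned. The levels of these 6 genes are therefore uncertain. Ranges and extremes of the classes also depend on the gene models behind the RPKM. For Psmb6 the model held 1872 nt, against 798 nt of exon in the basic transcripts, and for Psmb3 2300 against 766.

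**Figure D1:**
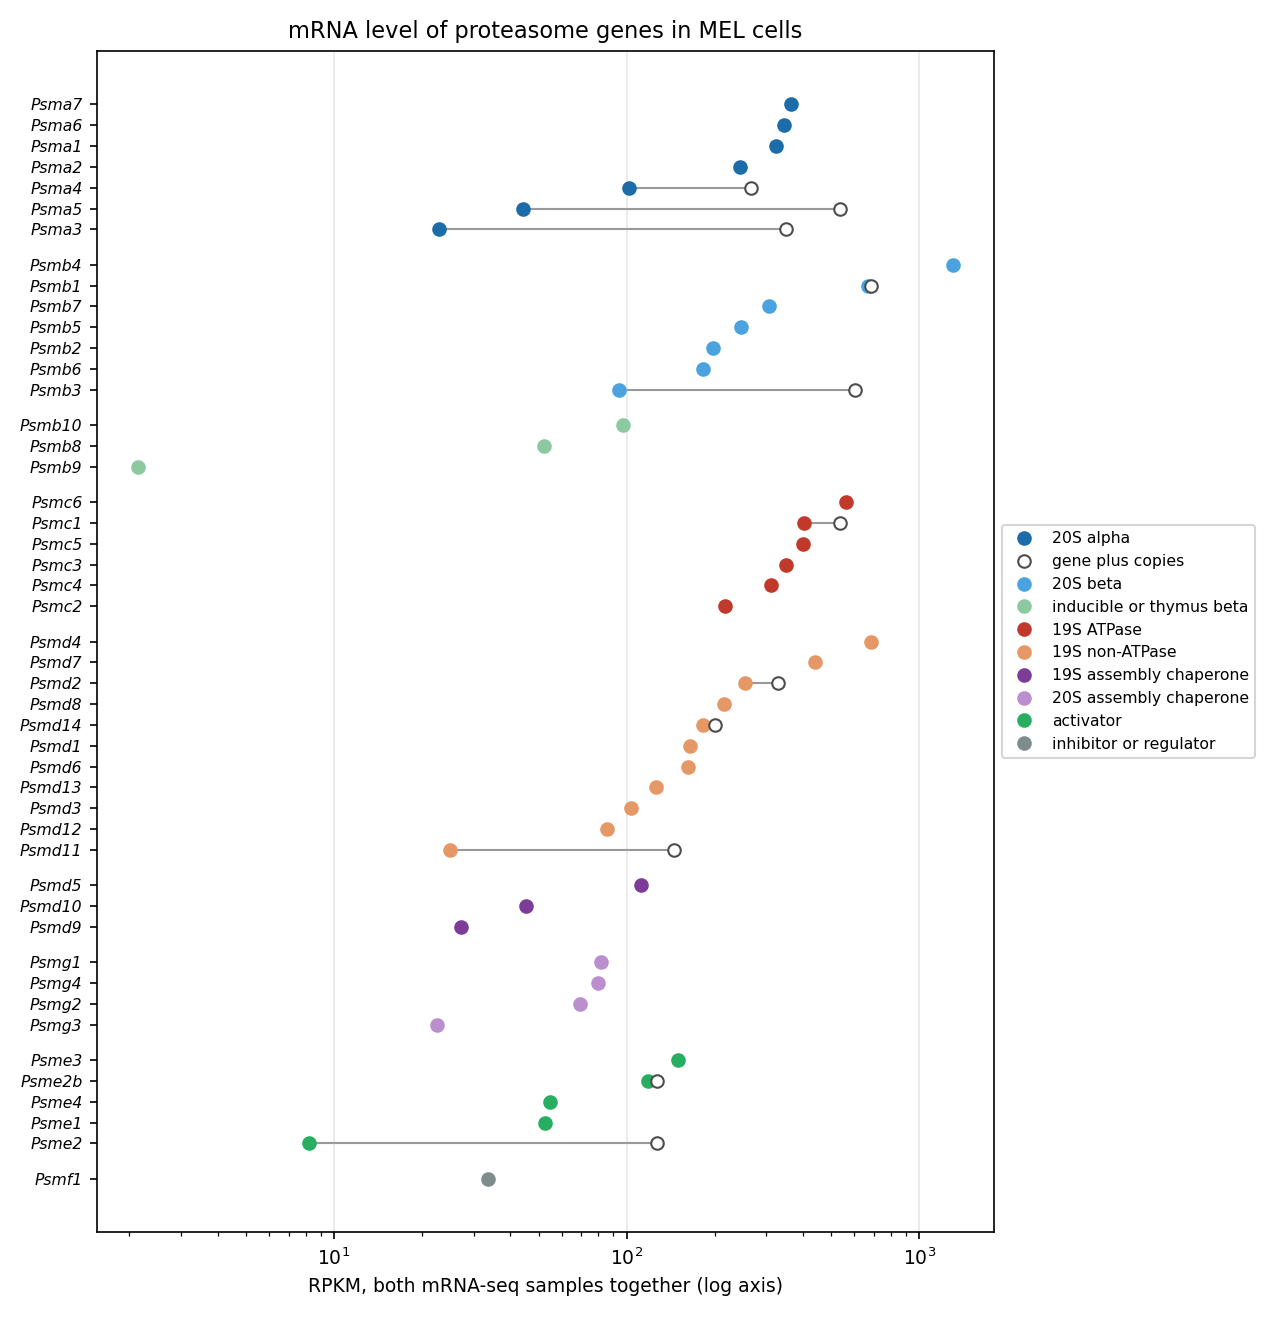
RPKM of the 47 expressed proteasome genes (log axis), by class; filled points are the gene's own value and open points the sum of gene and near-identical listed copies. The open points of Psma3 and Psma4 lie among the other alpha genes and that of Psma5, at 535, above them, while their own values are the 3 lowest of the ring.

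PABPC1 peaks lay on every expressed member. An exonic peak was found in 47 of the 49 genes, beside 78.4% of all protein-coding genes and 96.6% of the expressed ones. Peak score is the authors' own value and is read here as height in tags. The members held 357 exonic peaks with a summed height of 35171 tags, 1.11% of the height over protein-coding genes, beside 1.92% of their summed RPKM. Per kilobase of exon the most signal lay on Psma1 with 2321 tags, the core chaperone gene Psmg4 with 2265, Psmd4 with 2206, Psmb4 with 1899, Psmc5 with 1657 and Psmb2 with 1582. The least among expressed members lay on Psmb9 with 19.2, Psme2 with 31.8 and Psme2b with 40.6. Psmg4 reached the level of Psmd4 at an RPKM of 79.8 against 684.

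The tallest single peaks show the same genes. Psmd4 had a peak of 3293 tags over the end of its mRNA (chr3:95032663-95032979, minus strand). Psma1 had 1 of 2713 (chr7:114264606-114264959, minus strand), and its next tallest peak held only 60. Psmc5 followed with 2044 (chr11:106263006-106263128, plus strand), Psmg4 with 1201 (chr13:34177980-34178173, plus strand) and Psmb4 with 1176 (chr3:94884321-94884449, minus strand). These 5 peaks had their midpoint in a 3' UTR. The catalytic subunit gene Psmb5 had no peak above 48 tags at an RPKM of 245. It has 2 near-identical pseudogene copies, neither in the RPKM list nor under a peak. These are Gm3375, with 98.9% identity over 796 nt, and Psmb5-ps, with 92.0% over 810 nt. The sources used here do not say how tags shared by several copies were placed. Low heights of genes with copies are therefore uncertain, and the part of copies in them was not tested.

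Summed height rose with RPKM across the 47 expressed members (Spearman's rho 0.488, Pearson's r 0.596 on log2 values, a description across genes, which are not replicates). Over protein-coding genes the same measures were higher, at 0.682 and 0.669. The median log2 ratio of summed height to RPKM, with 1 added to each, was 1.94 for the members against 2.78 for the 10211 expressed protein-coding genes, and 35 of the 47 lay below the latter. Members have short transcripts, with a median of 1469 nt of exon against 3236, and summed height is not divided by length. With height per kilobase the medians were 0.97 and 1.14, and 25 of 47 lay below the protein-coding median. The difference of the medians, members minus protein-coding genes, was thus -0.85 with summed height and -0.16 per kilobase. The ratio per kilobase mixes lengths, since height was divided by exons of the basic transcripts and RPKM by the authors' gene models. For Psmc2 these were 1785 and 5031 nt, which raises its ratio. The ratio was lower in abundant genes. At an RPKM of 20 to 100 the members' median was the higher on both scales, and at 100 or more the sign depended on the scale. For the 16 members with an RPKM of 20 to 100 the medians were 2.87 against 2.77 with summed height and 1.81 against 1.11 per kilobase. For the 29 with an RPKM of at least 100 they were 1.19 against 1.73 and 0.63 against 0.54. The 16 include Psma3, Psma5, Psmb3 and Psmd11, whose levels are uncertain. With copies summed their RPKM was 352, 535, 601 and 146, above the range of 20 to 100.

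Single members spread far more than that gap. The 5 highest ratios were those of Psma3 (5.07), Psmd11 (4.93), Psmf1 (4.45), Psme4 (4.37) and Psmg4 (3.96). Psma3 and Psmd11 are genes with abundant copies: with gene and copies summed on both sides their ratios were 1.35 and 2.46. Psmg4 has no listed copy, and per kilobase it stood at percentile 99.2 of expressed protein-coding genes, the highest of the members. The 5 lowest were Psme2b (-1.77), Psmb5 (-1.53), Psmb1 (-0.79), Psma4 (0.38) and Psmd7 (0.41). Per kilobase Psmb1, Psme2b and Psmb5 were again lowest, at percentiles 1.4, 4.50 and 5.39. With copies summed Psma4 stood at -0.33 and Psmb3 at -2.00, in place of 0.44, while Psmb1 stayed at -0.79. Psme2b, summed with its near-copy Psme2, stood at -0.95 in place of -1.77.

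**Figure D2:**
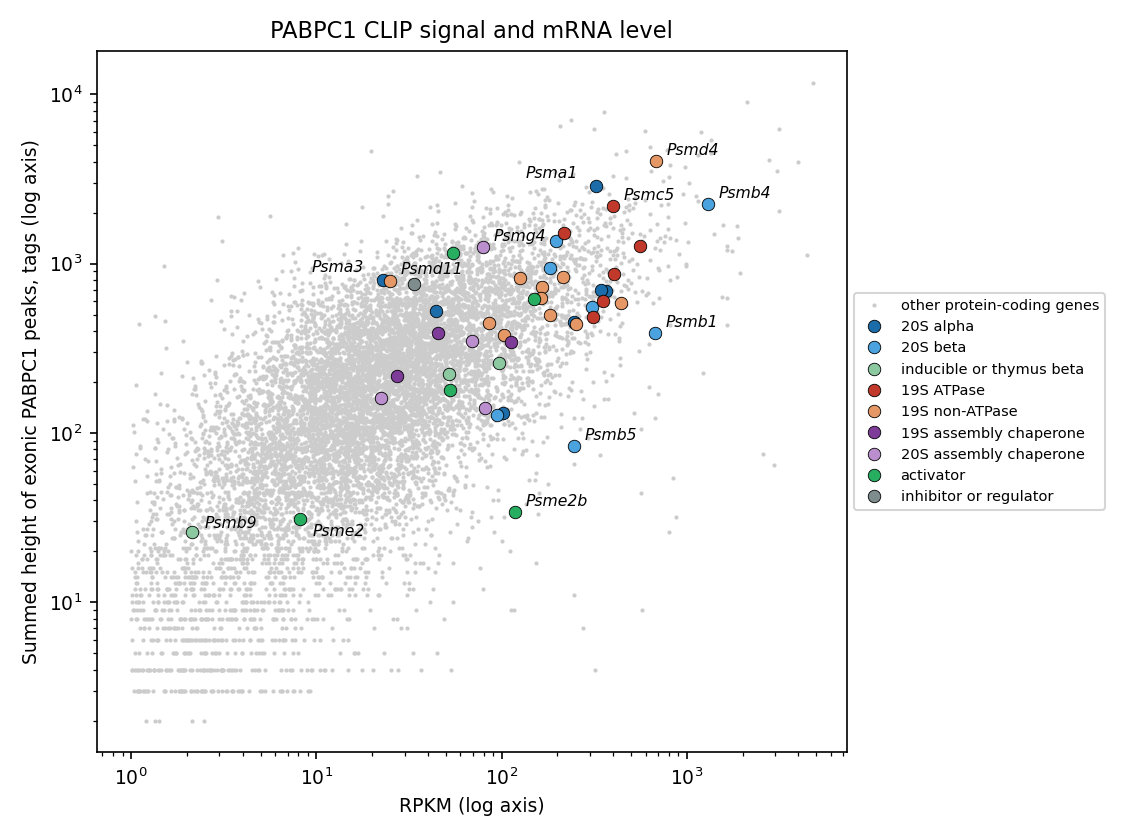
Summed height of exonic PABPC1 peaks against RPKM (both log axes) for expressed protein-coding genes with a peak (grey) and proteasome genes by class. Psma1 and Psmd4, at log2 ratios of 3.15 and 2.57, lie above the median of 1.73 of protein-coding genes with an RPKM of at least 100. Psmd4 lies below the median of 2.78 of all expressed ones. Psmg4, at 3.96, lies above the median of 2.77 at an RPKM of 20 to 100. Psmb5, Psmb1 and Psme2b lie low, with summed heights of 84, 388 and 34 tags.

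Most peaks of proteasome mRNAs lay in coding sequence, and most of their height in the 3' UTR. By midpoint 272 of 357 exonic peaks, 76.2% (exact Clopper-Pearson 95% interval 71.4 to 80.5, counting error only), fell in the coding sequence (CDS), 72 or 20.2% (16.1 to 24.7) in a 3' UTR and 13 in a 5' UTR. Over all protein-coding genes 42.2% of peaks lay in the CDS and 55.2% in 3' UTRs. The members' 3' UTRs are short, with a median of 199.5 nt against 834, and made up 32.8% of their exon length against 45.0%. Relative to length the 3' UTRs of members thus held 0.616 times their share of peaks, and those of all protein-coding genes 1.23 times. The 3' UTR peaks were taller, at a median of 92.5 tags against 17 in the CDS, and held 67.4% of the members' summed height, 2.06 times their share of length. Over all protein-coding genes the medians were 13 and 8 tags and the share of height 77.9%, or 1.73 times the share of length.

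The tallest peak of 34 of the 47 members had its midpoint in a 3' UTR, and that of 40 touched one. Psmc2, Psmc3 and Psmc4 had every peak midpoint in the CDS, but their tallest peaks, of 977, 452 and 345 tags, ran past the stop codon into 3' UTRs of 83, 68 and 75 nt. Among peaks with a midpoint inside the gene's span, tallest peaks that did not touch a 3' UTR were found in 7 genes. They were Psma6 (237 tags), Psmb3, Psmb5, Psmd1 (212), Psme2, Psme2b and Psmg2 (200). For Psma6 this need not be the main signal, since a 3' UTR base 22 nt before its annotated end was covered by 602 tags. Psmd1, which encodes the scaffold subunit of the cap, carried 25 exonic peaks, 22 of them in its CDS, and Psme4 carried 31 with 27 in the CDS. The 13 peaks in 5' UTRs, in 9 genes, held 3 to 48 tags, the tallest in Psmb1.

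**Figure D3:**
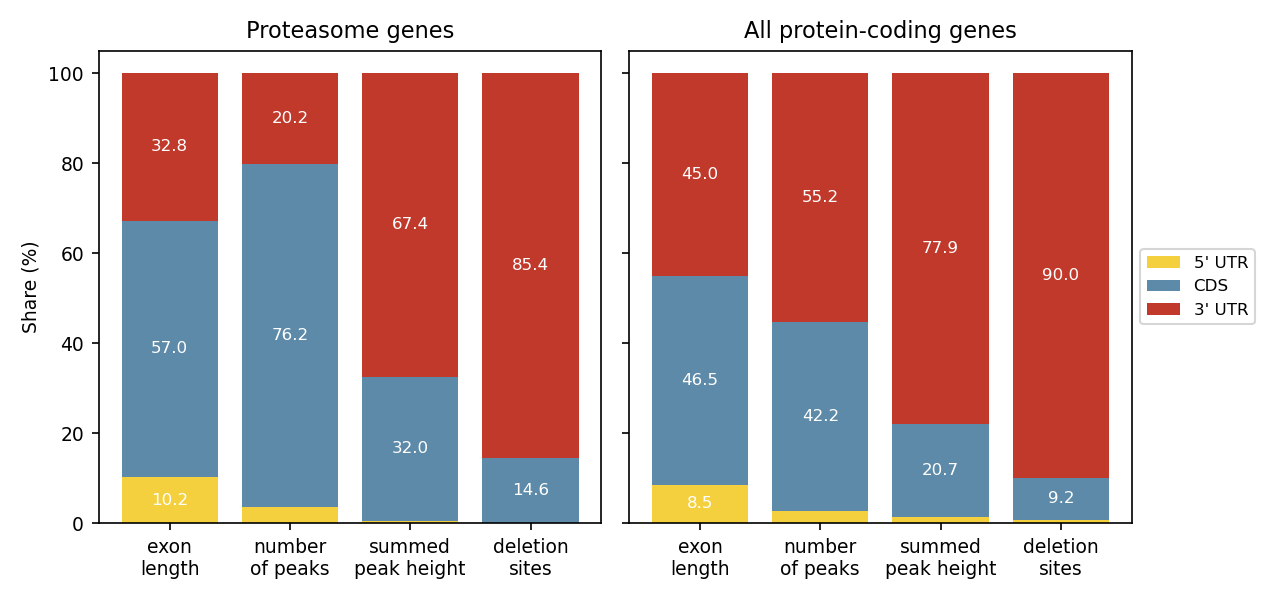
Shares in percent of exon length, number of peaks, summed peak height and deletion sites by region, for proteasome genes (left) and all protein-coding genes (right). In the members the CDS holds 76.2% of the peaks and 32.0% of the height, while the 3' UTR holds 85.4% of the deletion sites.

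Deletion sites were found in the exons of 32 of the 49 genes, beside 28.4% of all protein-coding genes. The share followed abundance: 23 of 29 members with an RPKM of at least 100 had a site, 79.3%, beside 78.0% of all such protein-coding genes. At 20 to 100 it was 9 of 16, 56.2% beside 48.6%, and at 1 to 20 it was 0 of 2 beside 19.4%. The members were thus close to other genes of their abundance, though the 16 include Psma3, Psma5, Psmb3 and Psmd11, whose levels are uncertain. A site with at least 100 deletions, a bound chosen after the values were seen, was present in 7 of the 47 expressed members, beside 1.97% of expressed protein-coding genes. Among members with an RPKM of at least 100 it was 6 of 29, 20.7%, beside 10.9%.

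The members' 103 exonic sites carried 4771 deletions, of which Psma1 held 36.1% and the 7 genes with a site of at least 100 deletions (Psma1, Psmc5, Psmg4, Psmc6, Psmb4, Psmd4 and Psmb2) 76.7%. Of the sites 53 adjoined another, and 65 runs remained once neighbours up to 10 nt apart were merged. Adjoining bases could have like counts, such as 741 and 738 in Psma1. The total of 4771 and the shares of 36.1% and 76.7% may therefore count the same tags more than once. At the median site 8.06% of tags carried the deletion, beside 10.7% over all protein-coding genes, at a median of 360 tags against 149. T was the deleted base at 47.6% of sites and A at 39.8%, beside 48.3% and 45.1%. A peak with its midpoint inside the gene's span covered 102 of the 103 sites. The exception was the site of Psma6, 22 nt before the annotated end and covered by 602 tags. Peaks with a midpoint past the end of a gene were not counted, so whether one covers this site was not tested. Both lists come from the same tags.

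Most sites lay near the end of the mRNA. Of the 103, 88 fell in a 3' UTR, 85.4% (exact Clopper-Pearson interval 77.1 to 91.6), beside 90.0% over all protein-coding genes, and relative to exon length 2.61 times and 2.00 times. The other 15 lay in the CDS. None lay in a 5' UTR, which allows a share of up to 2.91% by a limit of 3 counts and 3.52% by the exact interval. The median distance of the 3' UTR sites to the next annotated transcript end was 39 nt, against 122 nt over all protein-coding genes, and 61 of 88 lay within 100 nt, 69.3% beside 47.0%. A poly(A) signal, AATAAA or ATTAAA, was present within 50 nt of 64 of the 88, 72.7% (62.2 to 81.7) beside 54.5%. Since the members' 3' UTRs are short, positions in them lie nearer an end to begin with, and the part of length in these differences was not tested.

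AATAAA was the most frequent of the hexamers counted. Within 20 nt of the site AATAAA was present at 43.7% of the members' sites, beside 31.2% over all protein-coding genes. ATATAA was present at 6.80% beside 13%, in 7 sites of Psma1, Psmg4 and Psmd1 alone, and AAAAAA at 10.7% beside 11.9%. Any of these was present at 54.4% (44.3 to 64.2) beside 49.0%. Sites of a gene share tags, so the intervals are too narrow. Of 60 sites in 3' UTRs with the first base of an AATAAA within 50 nt, a bound that need not hold the whole hexamer as above, 16 lay inside the hexamer, 13 of these at its first or second A. A further 18 lay 1 to 10 nt before it, 21 lay 11 to 50 nt before it and 5 after it.

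**Figure D4:**
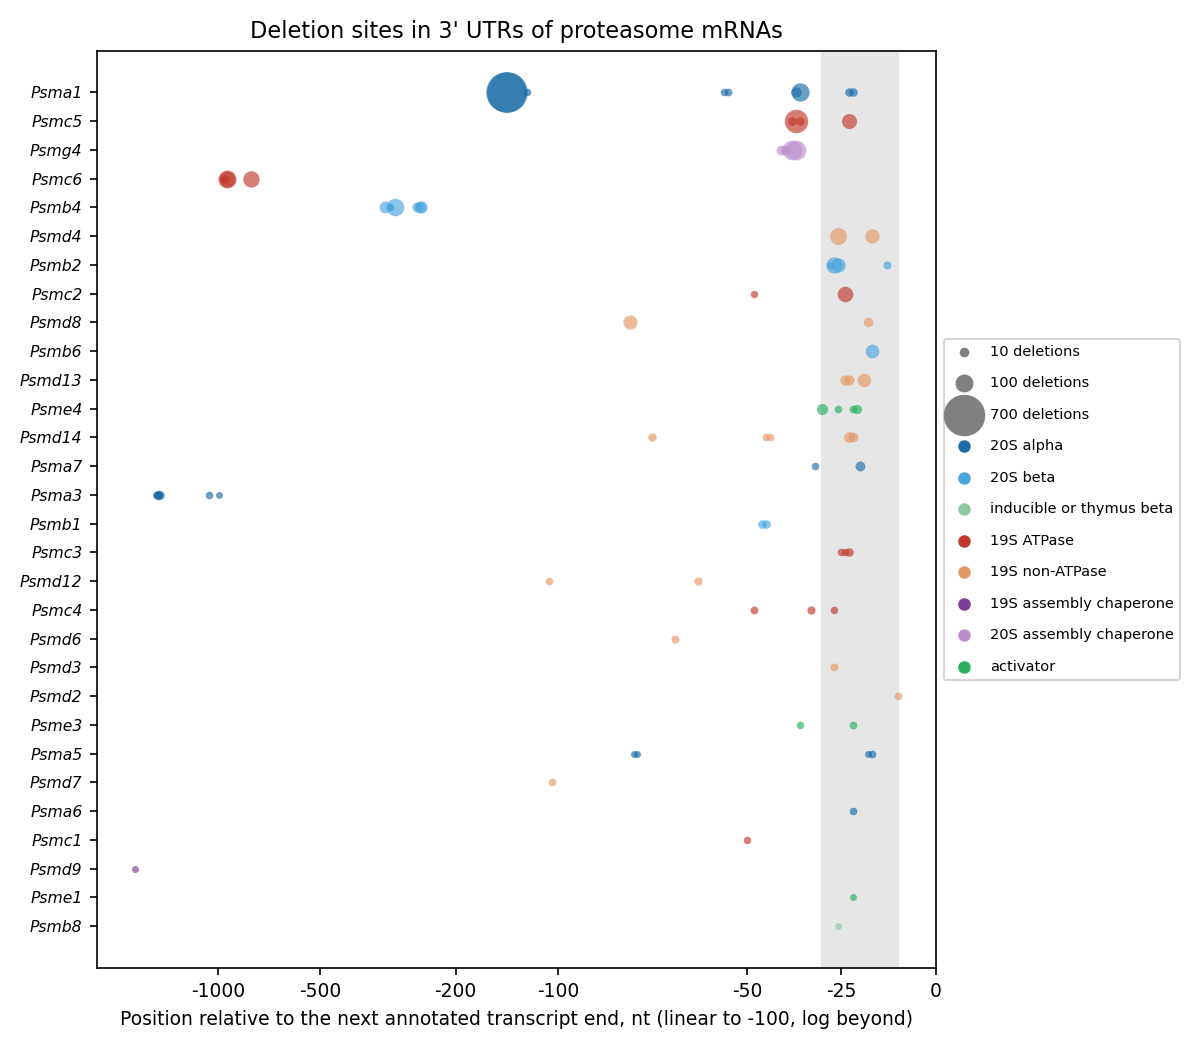
Deletion sites in the 3' UTRs of proteasome mRNAs by distance to the next annotated transcript end (symmetric log axis), point area by number of deletions, 1 row a gene in order of its strongest site. The grey band marks 10 to 30 nt before the end, where 15 of the 28 strongest sites that lie in a 3' UTR were found.

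Taking the strongest site of each of the 32 genes, 28 lay in the 3' UTR, at a median of 28.5 nt from an annotated end, 19 of them within 50 nt. AATAAA was beside 17 of the 32. Psma1 led, with 741 deletions in 2397 tags at 114264747, 30.9% (29.1 to 32.8), where ATATAA lies 141 nt before the end. It had a further site with 139 deletions in 581 tags at 114264642, 36 nt before the end and near AATAAA. In the alpha ring Psma7 followed with 29 in 333 tags (chromosome 2, 180036394), then Psma3 with 25 in 590 (chromosome 12, 70994848), Psma5 with 12 in 68 (chromosome 3, 108279957) and Psma6 with 11 in 602 (chromosome 12, 55418432). Psma2 and Psma4 had no exonic site.

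In the beta ring Psmb4 had 125 deletions in 1116 tags (chromosome 3, 94884395), Psmb2 106 in 1024, Psmb6 71 in 741 (chromosome 11, 70527632) and Psmb1 18 in 140 (chromosome 17, 15476005). The inducible Psmb8 and Psmb10 had 1 site each, with 6 deletions in 145 tags (chromosome 17, 34201428) and 6 in 174 (chromosome 8, 105935887). Psmb3, Psmb5, Psmb7 and Psmb9 had none, although Psmb7 and Psmb5 stood at RPKM 306 and 245.

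All 6 ATPase genes carried sites. Psmc5 had 237 deletions in 1069 tags at its strongest site in the 3' UTR. Psmc6 had 133 in 610 (chromosome 14, 45348765) and Psmc2 96 in 919 (chromosome 5, 21803763). Psmc3 had 19 in 313 (chromosome 2, 91059351), Psmc1 17 in 177 (chromosome 12, 100123182) and Psmc4 15 in 275 (chromosome 7, 28041740). The strongest sites of Psmc1 and Psmc3 lay in the CDS, 10 and 13 nt before its last base.

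Of the 11 non-ATPase genes 10 carried a site, Psmd11 being the exception. Psmd4 had 117 deletions in 870 tags (chromosome 3, 95032731), Psmd8 76 in 640 (chromosome 7, 29174269), Psmd13 68 in 253 (chromosome 7, 140898593) and the deubiquitinase gene Psmd14 39 in 339. The others were weaker: Psmd12 with 16 in 235 (chromosome 11, 107498110), Psmd6 with 14 in 80 (chromosome 14, 14112243), Psmd3 with 13 in 147 (chromosome 11, 98695952) and Psmd2 with 12 in 60 (chromosome 16, 20663404). Psmd7 had 11 in 107 (chromosome 8, 107580485) and Psmd1 6 in 32 (chromosome 1, 86130652).

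Among the other factors Psmg4 stood out with 164 deletions in 1104 tags (chromosome 13, 34178130), 38 nt before the end, and the same number at the adjoining base. It was the only core chaperone with a site. Psme4 had 42 in 514 (chromosome 11, 30880331), Psme3 12 in 319 (chromosome 11, 101323515), Psme1 6 in 124 (chromosome 14, 55581506) and Psmd9 7 in 7 (chromosome 5, 123248383). The 15 expressed members without an exonic site were Psma2, Psma4, Psmb3, Psmb5, Psmb7, Psmb9, Psmd5, Psmd10, Psmd11, Psme2, Psme2b, Psmf1, Psmg1, Psmg2 and Psmg3. Psmf1 had none at a summed height of 755 tags, nor Psmd11 at 794. Among the 15, Psma2, Psma4, Psmb3, Psmb5, Psmd11, Psme2 and Psme2b have near-identical copies, and how tags shared with these were placed is not known.

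Some sites far from an end lay near an end of another annotated transcript form. Distances above are to ends of the basic transcript set. In Psmb4 the sites lay 253 to 323 nt before the basic end, and the 56 deletions at 94884346, in an AATAAA, lay 24 nt before an end in the comprehensive set. In Psma3 the strongest site lay 1499 nt before the basic end and 73 nt before a comprehensive end. Psmc6 kept a distance of 940 nt at its strongest site in both sets, with AATAAA within 20 nt, and 797 nt at its next site, of 108 deletions in 386 tags (chromosome 14, 45348908), which was beside none of the hexamers above. Over all 88 sites the median was 36.5 nt with the comprehensive ends.

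The 15 sites in the CDS belonged to 8 genes, and Psmd1 and Psmb10 had exonic sites there alone. Psmb2 had 11 deletions in 36 tags at 126684204, 30.6% (16.3 to 48.1), 432 nt before the end of the CDS. Psmc6 had 14 in 127 tags at 45343680, 238 nt before it. Neither sequence, both given above, lies beside a hexamer counted here. Psmd4 had 15 in 186 tags at 95033670 and 13 in 168 at 95036632, 240 and 967 nt before it. Psmd14 and Psmb10 had 6 deletions each, 36 and 93 nt before the end of the CDS.

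Other genes of the pathway, from a list of genes that support or feed the proteasome, were also covered. All 29 found in the RPKM list were expressed, with a median RPKM of 44.7, and carried a peak, beside 96.6% of expressed protein-coding genes. Of the 29, 18 had an exonic deletion site, beside 37.0% of expressed protein-coding genes. Among protein-coding genes with an RPKM of 20 to 100, the range that holds this median, the share with a site was 48.6%. It was 19.4% at 1 to 20 and 78.0% at 100 or more, and the 29 genes fall in all of these ranges. No single range is therefore matched to them. Pomp, the gene of the maturation factor of the core, was the most abundant at 631, with a summed height of 4908 tags and 382 deletions in 4755 tags at its strongest site. The polyubiquitin gene Ubb followed at 565 with only 44 tags, a log2 ratio of -3.65, and the ubiquitin-activating enzyme gene Uba1 at 328 with 1857. The others ran from Txnl1, a thioredoxin of the cap, at 206 to the protease gene Ddi2 at 5.78. The median log2 ratio of the 29 was 2.96, beside 1.94 for the members and 2.78 for expressed protein-coding genes. Their exons are longer, at a median of 3344 nt, and per kilobase the medians were 1.2, 0.97 and 1.14. Nfe2l1 itself stood at RPKM 43.8 with 420 tags.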

How the data were processed

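PABPC1 CLIP-seq (3 samples) and mRNA-seq (2 samples) of MEL cells were used as deposited, each kind pooled by the authors. Per the labels, 1 file holds the authors' RPKM, a level scaled by gene length and library size, 1 value a gene. The deposited deletion list gives, per the file, the count of tags with a deletion at a base and a second number read as the tags covering it. The deposited peak list gives each peak a score by the authors, which no label explains and which is read as height in tags. Per the submitters' processing notes the tools were HTSeq 0.6.0, TopHat2 2.0.12, Novoalign 3.02.02 and cutadapt 1.4.2, on mm10, with no role or threshold stated.

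Genes were matched by identifier without version to GENCODE M21 (mm10), and 18059 of 18349 rows were found. Peaks, by midpoint, and sites were placed on the gene's strand inside its span, on basic transcripts, in the order 3' UTR, 5' UTR, CDS, intron, with 1-based coordinates. Of the members' 368 peaks 11 were intronic, and of 108 sites 5. Ratios are log2((summed height + 1)/(RPKM + 1)) for RPKM of at least 1, which understates the ratio of low genes. Region shares of length use the collapsed exons of genes with a peak. Hexamers were searched on the mRNA strand, 20 nt to both sides, and poly(A) signals within 50 nt. AATAAA and the other hexamers can overlap. Copies were found with BLAST+ 2.17.0, and intervals computed with scipy 1.17.1. The placement was tested on simulated positions. Reads behind the RPKM were recovered as whole numbers, within 0.01, for all 3560 genes under 200 reads among the 4946 whose versioned identifier matched.

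Genes were named by a rule: the highest and lowest RPKM of each class, the 5 highest and lowest ratios, every member with a deletion site and every member without a peak. Sequences are printed for some sites only, and the positions and sequences of 3 sites are not reported here. The members and lists were chosen with earlier results of these data known.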

Additional observations from a re-analysis of the deposited data

How the results depend on the processing

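No paired analysis was possible because the files hold pooled values alone, and for the same reason no sample could be left out in turn. Of 36 alternatives to 10 results, 31 stayed within the 95% interval of the value reported or, for a count, within 1.5 times of it. The others moved. The median log2 ratio of the members was 0.97 with height per kilobase. The share of exonic peaks in the 3' UTR was 25.1% for peaks of at least 10 tags and 53.3% for peaks of at least 50. The share of sites with one of the counted hexamers near was 67.0% with windows of 50 nt, and that of 3' UTR sites near a poly(A) signal 54.5% with windows of 20 nt. Chosen after the data were seen, the sum of gene and copies gave a median RPKM of 182 and a median ratio of 1.75, and members without a listed copy 156 and 2.05. Depth limits the sites of few tags, such as those of Psmd9 and Psma5.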

Other observations

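5 further deletion sites lay in introns of members. Psmd6 held 3 adjoining sites (chromosome 14, 14112523 to 14112525), the first deleted in 7 of 7 tags, and Psme4 held 1 deleted in 9 of 10 tags (chromosome 11, 30839023). The sites of both genes lay near the edge of a peak with its midpoint in the CDS (14112519 to 14112604 and 30838884 to 30839027). Whether they mark contact within an intron was not tested. The site of Psma2 (chromosome 13, 14637910), with 8 deletions in 38 tags, also lay in an exon of AW209491 on the same strand. Of the exonic sites 2 were deleted in at least 80% of their tags, that of Psmd9 in 7 of 7 (exact Clopper-Pearson interval 59.0 to 100) and 1 of Psmd1 in 5 of 6, the latter also in an exon of Gm21972.

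Tags on the pseudogene copies with an RPKM above that of their parent gene varied. Gm4950, at RPKM 505, had a summed peak height of 10, Gm13835, at 328, had 68, Gm12989, at 281, had 23, Gm8394, at 210, had 64, Gm6542, at 166, had 80, and Gm14048, at 121, had 10. Their parent genes Psmb3, Psma3, Psma5, Psma4 and Psmd11 had 128, 799, 523, 132 and 794 exonic tags, and of these the gap was smallest for Psma4. The height of Psma3 lay to 97.4% in its 3' UTR and that of Psma5 to 98.7%, and each had 1 peak in the CDS.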
